A study of Rattus norvegicus with 16 samples.

Results

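The carbonic anhydrases were taken as the genes of the count table whose name is Ca or Car followed by a number and, in some cases, the letter a or b, as these genes are written in the rat. This rule found 16 of 32623 genes. A count was present in at least 1 library for 12 of them, and 9 had a count in all 4 groups of cell line and pH, namely Ca9, Ca5b, Ca13, Ca14, Ca11, Ca3, Ca6, Ca12 and Car7. Car1, Car2 and Car15 had a count in some groups, and Ca8, Ca4, Car10 and Ca5a had no count in any of the 16 libraries.

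Carbonic anhydrases are zinc enzymes that interconvert carbon dioxide and water with bicarbonate and a proton. The members differ mainly in where they sit, with forms in the cytosol, in mitochondria, on the outer face of the plasma membrane and in secretions, and a few related proteins have lost the catalytic activity. In the kidney tubule, a cytosolic form and membrane-bound forms serve bicarbonate reabsorption and acid secretion, and Ca9 is widely known as a gene induced by hypoxia whose product acidifies the space around cells.

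The study asked how an acid medium changes gene expression in renal epithelial cells and fibroblasts that are grown together. NRK-52E is an epithelial line and NRK-49F a fibroblast line, both from normal rat kidney, and the lines shared a medium across a filter membrane. After 24 h in medium without added serum they were kept for 48 h at pH 7.4 or pH 6.0, and RNA was then taken from each line on its own. In the sample titles the pH is rounded to 7 and 6, and the treatment protocol gives 7.4 and 6.0. There were 4 libraries in each group, with N1, N2, N5 and N6 from NRK-52E cells at pH 7.4, N3, N4, N7 and N8 from NRK-52E cells at pH 6.0, N9, N10, N13 and N14 from NRK-49F cells at pH 7.4, and N11, N12, N15 and N16 from NRK-49F cells at pH 6.0. The labels do not say that the libraries of a group came from separate cultures, so p-values measure the spread between these libraries, which may be technical. Library totals were 17760185 to 20612657 counts for NRK-52E at pH 7.4 and 16844811 to 23856187 at pH 6.0. For NRK-49F they were 17518187 to 27607214 at pH 7.4 and 16201084 to 34784862 at pH 6.0. Levels are given as fragments per 1000000 counted fragments after scaling (FPM), which are not corrected for gene length, so they do not rank the carbonic anhydrases by abundance, and mean FPM served only to choose the members for the search for genes with a like pattern.

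Library N8 stood apart from the other NRK-52E libraries at pH 6.0. Its median Pearson's r to them, across 13105 genes, was 0.974, against 0.988 for N3, 0.988 for N4 and 0.990 for N7. Fitted fold changes of single carbonic anhydrases that rest on it are given with and without N8.

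The cell line names were compared with marker genes. Of 7 epithelial markers, 4 had a mean of at least 1 FPM in NRK-52E cells at pH 7.4. Their summed level was 432 to 508 FPM at pH 7.4 and 302 to 364 FPM at pH 6.0, most of it from Krt8, which had a mean of 430 and 316 FPM. Cdh1, the E-cadherin of epithelial junctions, had only 1.62 FPM at pH 7.4 and 0.315 FPM at pH 6.0, and Epcam, Krt18 and Cldn4 were each at most 0.136 FPM. Krt8 was also present in NRK-49F cells, where the epithelial sum was 785 to 949 FPM at pH 7.4 and 199 to 221 FPM at pH 6.0. Ocln, a tight junction protein, separated the lines, with 41.2 FPM in NRK-52E and no count in NRK-49F at pH 7.4. Of 8 proximal tubule markers, Slc34a1 and Hnf4a had no count in NRK-52E cells, and the sum was 28.3 to 46.1 FPM at pH 7.4 and 24.1 to 35.2 FPM at pH 6.0, led by Aqp1. In NRK-49F cells the same sum was 119 to 157 FPM at pH 7.4 and 357 to 546 FPM at pH 6.0, led by Ggt1 with a mean of 112 and 413 FPM. A gene was called changed when its false discovery rate (FDR) was below 0.01 in both edgeR and DESeq2. Of all genes tested in NRK-49F, 37.8% were called, 18.4% as higher and 19.4% as lower at pH 6.0. Of 4 proximal tubule markers tested there, Ggt1 was called higher (1.87 on the log2 scale) and Slc5a2 lower (-3.04), Aqp1 (0.92) and Cubn (-0.87) were not called, and the median was 0.02. In NRK-52E, 0 of 4 were called higher and 1 lower, Slc5a2 (-3.44), where 28.5% of all genes were lower. Of 8 fibroblast markers, Thy1 had no count in any group. Pdgfra separated the lines, with 392 FPM in NRK-49F and 0.286 FPM in NRK-52E at pH 7.4. Col3a1 went the other way, with 6221 FPM in NRK-52E and 458 FPM in NRK-49F at pH 7.4, a log2 difference of 3.85. Of 7 fibroblast markers tested between the lines at pH 7.4, 5 were called lower in NRK-52E and 1 higher, where 66.6% of all genes were called. Dcn (0.68) was not called. The fibroblast sum was 6609 to 7609 FPM at pH 7.4 and 7726 to 9415 FPM at pH 6.0 in NRK-49F cells, led by Col1a1. The higher sum came from Col1a1, which had 5644 to 6558 FPM at pH 7.4 and 6961 to 8995 FPM at pH 6.0 without overlap, with a log2 fold change of 0.40 that passed in DESeq2 (adjusted p = 0.000582) and narrowly missed in edgeR (adjusted p = 0.0103). Of 6 fibroblast markers tested there, 3 were called lower, Col3a1 with a log2 fold change of -3.10, Lum with -2.06 and Pdgfrb with -2.01, and 0 higher. The sum was 6164 to 6393 FPM at pH 7.4 and 1842 to 3203 FPM at pH 6.0 in NRK-52E cells, led by Col3a1. The labels are therefore used as names of the lines, since several defining markers of tubule epithelium were at or near 0 in NRK-52E.

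In NRK-52E cells, 5 carbonic anhydrases had enough counts to be tested, and 4 of them changed with acidosis, Ca9 and Ca5b falling and Ca13 and Ca14 rising. Over all 13735 genes tested in this line 56.7% were called, 28.2% as higher and 28.5% as lower at pH 6.0, so a call was common for any gene. In NRK-49F cells, 1 of 4 tested members was called, the fall of Ca5b, against 37.8% of 13339 genes, with 18.4% higher and 19.4% lower. On the log2 scale the median change over the tested members was 0.43 in the epithelial line and 0.12 in the fibroblast line, against a median of all genes that rounds to 0.00 in each line. In NRK-52E this median is the value of Ca11, which was not called and was 0.15 without N8, and the called members went in opposite directions. Between the cell lines, Ca13 passed the filter on low counts only through NRK-52E and so had to differ. Of the other 4 tested members, 3 differed at pH 7.4 (Ca9, Ca5b and Ca11), where 66.6% of all genes were called, and 2 at pH 6.0 (Ca5b and Ca11), where 59.8% were. With Ca13 again set apart, the pH effects of the lines differed for 1 of 4 members, Ca9, against 36.9% of all genes. With DESeq2 alone, Ca9 and Ca3 were also called in NRK-49F, against 30.1% of genes, and Ca14 and Car1 in the difference between the lines at pH 6.0, against 46.4%. Car1, which had no count in NRK-49F, was also called there without a filter on low counts (edgeR's adjusted p = 0.00487), where 43.5% of genes were, but 20 of its 25 counts at pH 6.0 came from N8. In the same fit without N8, which was chosen after the data were seen, it was not called (edgeR's adjusted p = 0.0509, no adjusted p in DESeq2), where 48.0% of genes were. Fewer cells of a type and less RNA per cell cannot be told apart in such libraries.

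**Figure D1:**
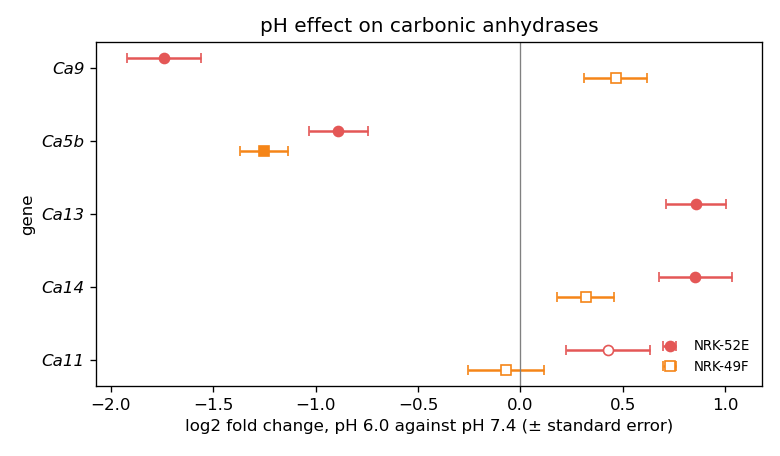
Log2 fold change of each tested carbonic anhydrase at pH 6.0 against pH 7.4 (x axis) by gene (y axis), with bars of 1 standard error, circles for NRK-52E and squares for NRK-49F, 4 libraries per group. Filled symbols passed an FDR of 0.01 in edgeR and DESeq2. Ca9 lay at -1.74 in NRK-52E and at 0.47 in NRK-49F, while Ca5b lay below 0 in both lines.

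Among the members on the cell surface, Ca9 (ENSRNOG00000017073, chromosome 5), a transmembrane enzyme with its catalytic domain outside the cell, showed the widest change with pH of the tested members. In NRK-52E cells at pH 7.4 it stood at 1109, 929, 912 and 937 FPM in N1, N2, N5 and N6. At pH 6.0 it stood at 255, 252, 246 and 422 FPM in N3, N4, N7 and N8. The groups did not overlap, and N8 was the highest library at pH 6.0. The mean went from 972 ± 92.1 FPM to 293.5 ± 85.8 FPM (SD, n = 4), which is 30.2% of the level at pH 7.4. The log2 fold change was -1.74 with a standard error of 0.18 (edgeR's quasi-likelihood test, Benjamini-Hochberg adjusted p = 1.11e-05), and it was -1.98 without N8.

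In NRK-49F cells Ca9 stood at 174, 150.4, 179 and 178 FPM at pH 7.4 in N9, N10, N13 and N14. At pH 6.0 the levels were 182, 196, 252 and 321 FPM in N11, N12, N15 and N16. All libraries at pH 6.0 lay above all those at pH 7.4, though N11 lay close to N13. The log2 fold change of 0.47 (SE 0.15) did not pass in both tools, with an adjusted p of 0.0222 in edgeR's quasi-likelihood test and 0.00889 in DESeq2. Whether it was called depended on the fit. Without N11 it was 0.58 and passed in both, with an adjusted p of 0.00603 in edgeR, where 32.9% of all genes were called. With the second number in the library names as a covariate it was 0.44 and also passed in both (0.00826 in edgeR, 38.9% of all genes called), as it did without a filter on low counts (0.48, 0.008825 in edgeR, 26.8% of all genes called) and at an FDR of 0.05 (52.2% of all genes called). Without N16 it was 0.29 and was not called. Over the alternatives tried, the adjusted p of Ca9 in NRK-49F lay between 0.00603 and 0.0683.

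The pH effect on Ca9 differed between the lines by -2.22 on the log2 scale (SE 0.25, edgeR's interaction test, adjusted p = 1.42e-06), and by -2.46 without N8. Ca9 was 6.04-fold higher in NRK-52E than in NRK-49F cells at pH 7.4, a log2 difference of 2.59 (SE 0.09, edgeR's adjusted p = 4.39e-10). At pH 6.0 the difference was 0.29 (SE 0.21, edgeR's adjusted p = 0.238), and 0.06 without N8. The NRK-52E libraries at pH 6.0 thus lay between 246 and 422 FPM and overlapped with the NRK-49F libraries at the same pH.

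In NRK-52E cells the fall of Ca9 went along with lower epithelial and fibroblast markers. All 4 epithelial markers that could be tested fell, for example Ocln by 2.11 and Krt8 by 0.47 on the log2 scale. Of 5 fibroblast markers 3 fell, Col3a1 with a fold change of -1.26, Pdgfrb with -1.53 and Dcn with -3.78. Dcn was rare, with a mean of 0.718 FPM at pH 7.4 and 0.0485 FPM at pH 6.0. Of all genes tested in this line 28.5% were called lower. The part of these markers in the Ca9 result was not tested.

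**Figure D2:**
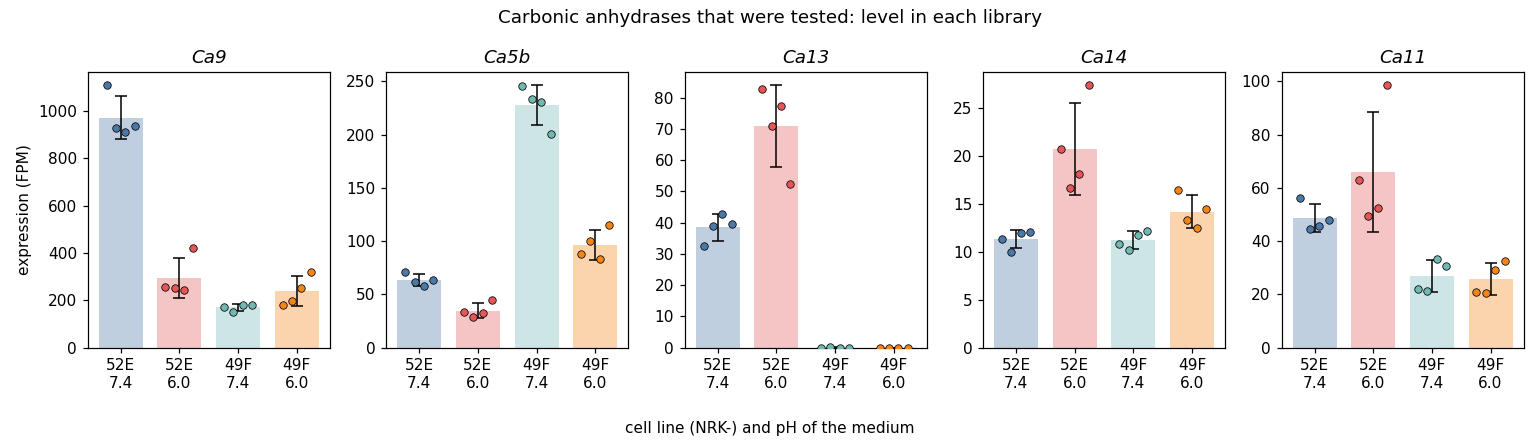
Expression in FPM (y axis) of the 5 tested carbonic anhydrases by cell line and pH (x axis). Bars are means, error bars 1 SD and points the 4 libraries of each group. Ca9 lay between 912 and 1109 FPM in NRK-52E at pH 7.4 and at or below 422 FPM in each other library, and Ca13 was near 0 in NRK-49F.

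Ca14 (ENSRNOG00000023162, chromosome 2) is a membrane-bound form known from the proximal tubule. In NRK-52E cells it stood at 11.3, 9.96, 11.98 and 12.1 FPM at pH 7.4 in N1, N2, N5 and N6, and at 20.7, 16.6, 18.1 and 27.4 FPM at pH 6.0 in N3, N4, N7 and N8. The acid libraries were all higher, N8 most. The log2 fold change was 0.85 (SE 0.18, edgeR's adjusted p = 0.00146), and 0.68 without N8. In NRK-49F cells the levels were 10.8, 10.2, 11.8 and 12.2 FPM at pH 7.4 in N9, N10, N13 and N14, and 16.4, 13.3, 12.4 and 14.45 FPM at pH 6.0 in N11, N12, N15 and N16. These groups did not overlap either, but N14 and N15 were nearly level, and the change of 0.32 (SE 0.14) was not called (edgeR's adjusted p = 0.0693). Over the alternatives tried this change lay between 0.15 and 0.51 and was not called in any. The difference between the lines at pH 7.4 was 0.09 (SE 0.12) and was not called (edgeR's adjusted p = 0.491). It reached 0.40 among the alternatives tried, and none of them gave a call. At pH 6.0 the difference of 0.53 (SE 0.19) passed in DESeq2 (adjusted p = 0.00606) and not in edgeR (adjusted p = 0.0214). It was also called with scaling by library totals alone (0.68, edgeR's adjusted p = 0.005824, with 58.5% of all genes called) and at an FDR of 0.05 (69.4% of all genes called), and it was 0.36 and not called without N8.

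The other surface forms were rare or without counts. Ca12, a transmembrane form, had 6, 5, 10 and 2 counts in NRK-52E at pH 7.4 in N1, N2, N5 and N6, and 2, 3, 6 and 0 at pH 6.0 in N3, N4, N7 and N8, and these groups overlapped. At pH 7.4 these sum to 23 counts, against 3 in NRK-49F. The ratio between the lines, scaled by library size, was 6.56 at pH 7.4 with a 95% counting interval of 1.98 to 34.1, and 4.37 at pH 6.0 with an interval of 1.15 to 24.4. All 3 counts of NRK-49F at pH 7.4 came from N14 and all 3 at pH 6.0 from N15, so without that library the line had no count of Ca12 at that pH. These intervals and the floors for counts of 0 cover counting error only. Car15, anchored to the membrane by a lipid, had 1 count in N1 and 1 in N8, and Ca4, also lipid-anchored and a main membrane form of the kidney tubule, had none. Over a group, the 3 counts that a count of 0 allows correspond to 0.0299 to 0.0386 FPM. Ca6, the secreted form of saliva, had 20 counts in NRK-49F at pH 7.4 and 2 at pH 6.0, a ratio of 12.9 with an interval of 3.14 to 114, and in NRK-52E it had 1 count each in N2 and N5, 2 in N8 and none in the other libraries. The NRK-49F groups overlapped, since both counts at pH 6.0 came from N12, which at 0.133 FPM lay above N9 and N10 with 2 counts each, and most counts at pH 7.4 came from N13 with 7 and N14 with 9. The group means differed by 7.78-fold. In a fit without a filter on low counts its adjusted p was 0.0297 in edgeR.

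Among the cytosolic members, Ca13 (ENSRNOG00000021323, chromosome 2) was the form with enough counts to be tested, and these came from NRK-52E cells. Its levels were 32.5, 39.0, 42.8 and 39.6 FPM at pH 7.4 in N1, N2, N5 and N6, and 82.7, 71.0, 77.3 and 52.4 FPM at pH 6.0 in N3, N4, N7 and N8. The groups did not overlap, and here N8 was the lowest acid library. The rise was 0.86 on the log2 scale (SE 0.15, edgeR's adjusted p = 0.000356), and 0.97 without N8. In NRK-49F cells Ca13 had 0 to 2 counts per library. Summed over 4 libraries, it had 3511 counts in NRK-52E and 3 in NRK-49F at pH 7.4, a ratio of 1001 with a 95% counting interval of 342 to 4858. At pH 6.0 the sums were 5933 and 1, with an interval of 1268 to 279293. The counts in NRK-49F were 1 in N9, 2 in N10 and 1 in N15, so the size of the difference rests on single libraries. When each library was left out in turn, the log2 difference between the lines of 9.83 at pH 7.4 lay between 9.33 and 10.77. That of 12.16 at pH 6.0 lay between 11.75 and 13.59. As Ca13 passed the filter on low counts only through NRK-52E, a difference was fixed in advance. The ranges describe only its size.

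Car2, the cytosolic form that carries most of the activity in the kidney, had 3 counts in N5 and no count in the other 15 libraries. Car1, known from red blood cells, had 0 to 7 counts in the NRK-52E libraries other than N8, which had 20, and none in NRK-49F. Of its 9 counts in NRK-52E at pH 7.4, 7 came from N1, and of its 25 at pH 6.0, 20 came from N8, so single libraries made up most of the signal. Car7, a form known from the brain, had 1, 5, 0 and 0 counts in NRK-52E at pH 7.4 in N1, N2, N5 and N6, and 9, 0, 0 and 1 at pH 6.0 in N3, N4, N7 and N8. In NRK-49F it had 0, 0, 3 and 2 counts at pH 7.4 in N9, N10, N13 and N14, and 0, 2, 1 and 2 at pH 6.0 in N11, N12, N15 and N16. The groups overlapped in each line.

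Ca3, a cytosolic form of muscle, liver and fat with low activity, was rare. In NRK-49F cells it had 5, 6, 4 and 6 counts at pH 7.4 in N9, N10, N13 and N14, and 1, 0, 1 and 0 counts at pH 6.0 in N11, N12, N15 and N16. The groups did not overlap, with 21 counts against 2, and the ratio of the levels was 13.6 with a 95% counting interval of 3.31 to 119. Ca3 did not pass the filter on low counts. In a fit without that filter it passed in both tools, with an adjusted p of 0.00833 in edgeR and 0.00966 in DESeq2, and 26.8% of the 19879 genes in that fit were called. In NRK-52E cells it had 1, 3, 0 and 0 counts at pH 7.4 in N1, N2, N5 and N6, and 0, 1, 1 and 4 at pH 6.0 in N3, N4, N7 and N8, and these groups overlapped.

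Car2, Ca3, Car1 and Ca13 are neighbours on chromosome 2, in that order in the RefSeq annotation of GRCr8. Of these 4 genes, only Ca13 had more than 20 counts in any library. Ca13 overlaps the pseudogene Prxl2a-ps1 in that annotation. Fragments that map to several places were counted at each, and whether the counts of Ca13 include such fragments was not tested.

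Ca5b (ENSRNOG00000029330, chromosome X), the mitochondrial form with a broad tissue range, fell in both lines. In NRK-49F cells it stood at 246, 233, 231 and 201 FPM at pH 7.4 in N9, N10, N13 and N14. At pH 6.0 it stood at 88.1, 99.9, 83.0 and 115 FPM in N11, N12, N15 and N16. The lowest library at pH 7.4 was far above the highest at pH 6.0. The mean went from 228 ± 19.0 to 96.4 ± 14.2 FPM (SD, n = 4), or 42.4% of the level at pH 7.4, and the log2 fold change was -1.25 (SE 0.12, edgeR's adjusted p = 4.38e-06).

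In NRK-52E cells Ca5b had 70.8, 62.0, 58.0 and 63.9 FPM at pH 7.4 in N1, N2, N5 and N6, and 33.4, 28.4, 32.6 and 44.6 FPM at pH 6.0 in N3, N4, N7 and N8. The groups were again separate, with N8 closest to the libraries at pH 7.4. The log2 fold change was -0.89 (SE 0.14, edgeR's adjusted p = 0.000256), and -1.04 without N8. The difference between the falls of the lines was 0.35 (SE 0.18) and was not called (edgeR's adjusted p = 0.119), and it was 0.20 without N8. Ca5b was lower in NRK-52E than in NRK-49F cells at both pH values, by a log2 difference of -1.76 (SE 0.09, edgeR's adjusted p = 4.98e-09) at pH 7.4 and -1.49 (SE 0.16, edgeR's adjusted p = 3.78e-06) at pH 6.0, or -1.63 without N8. Ca5a, the mitochondrial form of liver, had no count.

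Ca11 (ENSRNOG00000021017, chromosome 1) is one of the related proteins without catalytic activity. In NRK-52E cells it stood at 56.4, 44.5, 45.8 and 47.9 FPM at pH 7.4 in N1, N2, N5 and N6, and at 63.0, 49.6, 52.4 and 98.6 FPM at pH 6.0 in N3, N4, N7 and N8. The groups overlapped and N8 was far above the rest. The change of 0.43 (SE 0.21) was not called (edgeR's adjusted p = 0.0873), and it was 0.15 without N8. In NRK-49F cells the levels were 21.9, 21.4, 33.4 and 30.6 FPM at pH 7.4 in N9, N10, N13 and N14, and 20.9, 20.4, 29.0 and 32.7 FPM at pH 6.0 in N11, N12, N15 and N16. These groups overlapped too, with a fold change of -0.07 (SE 0.19, edgeR's adjusted p = 0.765), and N13 to N16 were higher than N9 to N12 at either pH. Ca11 was higher in NRK-52E cells, by 0.94 (SE 0.15, edgeR's adjusted p = 0.000129) at pH 7.4. At pH 6.0 it was higher by 1.34 (SE 0.23, edgeR's adjusted p = 0.000216), or 1.07 without N8. These fits left out the second number in the library names, which is 21 or 22 in NRK-52E and 20 or 21 in NRK-49F. With number 21, Ca11 had 56.4 and 44.5 FPM in N1 and N2, and 33.4 and 30.6 in N13 and N14, at pH 7.4. At pH 6.0, N3 and N4 had 63.0 and 49.6 FPM, and N15 and N16 had 29.0 and 32.7. Ca8 and Car10, also without catalytic activity, had no count.

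The names of the libraries hold a second number, 21 for N1 to N4 and 22 for N5 to N8 in NRK-52E, and 20 for N9 to N12 and 21 for N13 to N16 in NRK-49F. What it stands for is not given in the sources used here. The line differences and the interaction were fitted without it, and only 21 occurs in both lines. Within each number, 2 libraries at pH 6.0 were compared with 2 at pH 7.4. In NRK-52E the fold change of Ca9 was -2.05 in the libraries with number 21 and -1.48 in those with 22, and Ca5b gave -1.14 and -0.68. Ca13 gave 1.06 and 0.63, Ca14 gave 0.77 and 0.90, and Ca11 gave 0.12 and 0.68. With number 21, 3 of 5 members were called by both tools (Ca9, Ca5b and Ca13), against 37.7% of all genes, and 4 by DESeq2, against 43.0%. With number 22, which includes N8, 0 of 5 were called by both tools, against 20.2% of all genes, and 1 by DESeq2 (Ca9), against 32.3%. In NRK-49F, Ca5b gave -1.35 with number 20 and -1.14 with 21 and was called in both, where 35.0% and 14.3% of all genes were called, and Ca9 gave 0.23 and 0.66. By DESeq2, 1 of 4 members was called with number 20 (Ca5b), against 35.5% of all genes, and 2 of 5 with number 21 (Ca5b and Ca9), against 19.4%. With the second number as a covariate, which called 38.9% of all genes in NRK-49F, Ca9 was called there as well (0.44, edgeR's adjusted p = 0.00826).

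Genes that work with carbonic anhydrases were described by lists. Ptprg is a receptor phosphatase whose outer part resembles a carbonic anhydrase. Its mean at pH 7.4 and at pH 6.0 was 57.4 ± 7.25 and 24.9 ± 5.47 FPM in NRK-52E, and 86.6 ± 19.1 and 53.4 ± 1.97 FPM in NRK-49F (SD, n = 4). It fell in both lines, with log2 fold changes of -1.23 and -0.71. Its relative Ptprz1 had 1 count in NRK-52E, and in NRK-49F it had 9 counts at pH 7.4 and 3 at pH 6.0. Of 16 bicarbonate transporters, 8 were tested in NRK-52E, where 2 rose and 2 fell, and 7 in NRK-49F, where 2 rose and 3 fell. The median fold change was -0.26 and 0.01. In NRK-52E the widest changes were the rise of Slc4a11 by 2.49, a relative of the family not known to carry bicarbonate, and the fall of the anion exchanger Slc4a3 with -2.42. In NRK-49F they were the rise of the sodium bicarbonate cotransporter Slc4a7 by 2.80 and the fall of the anion exchanger Slc4a2 with -1.75.

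Of 11 proton and lactate exporters, 5 were tested in NRK-52E, where 0 rose and 2 fell with a median of -0.04, and 6 in NRK-49F, where 1 rose and 1 fell with a median of -0.22. The lactate transporter Slc16a3 fell in NRK-52E (-1.71), where its level was low at 2.04 FPM. In NRK-49F its value of -0.90 was not called (edgeR's adjusted p = 0.0137). Slc16a1 rose in NRK-49F (0.99) while Bsg, a partner of these transporters, fell there (-0.83). Of 9 carboxylases and carbamoyl phosphate synthetases, which use bicarbonate as a substrate, 8 were tested in NRK-52E, with 1 rise, 1 fall and a median of -0.18. In NRK-49F 7 were tested, with 1 rise, 0 falls and a median of 0.03. Pc, the pyruvate carboxylase of mitochondria, rose in NRK-52E (1.95) and Pccb fell (-0.59), and Cad rose in NRK-49F (1.36). Acacb (-1.41) and Acaca (-0.75) had lower values than Pccb in NRK-52E but were not called. The background for these counts is the same as for the carbonic anhydrases, 56.7% of genes called in NRK-52E and 37.8% in NRK-49F.

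Ca9 was also set beside 13 target genes of hypoxia-inducible factors. In NRK-52E 11 of them were tested, and 5 rose and 1 fell, with a median log2 fold change of 0.48. The share of calls in both directions together is near the 56.7% of all genes called in that line. By direction, 28.2% of all genes were called higher there and 28.5% lower. Vegfa rose from 49.9 ± 1.44 to 195 ± 60.5 FPM (SD, n = 4) and P4ha1 from 206 ± 8.20 to 618 ± 66.1 FPM, fold changes of 1.95 and 1.56, and Egln1 fell by 0.51 on the log2 scale. In NRK-49F all 13 were tested, and 6 rose and 1 fell, with a median of 0.49. Of all genes tested there 37.8% were called, 18.4% as higher and 19.4% as lower. Adm had the widest rise, 2.03, and Ndrg1 was the gene that fell, with -0.32.

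**Figure D3:**
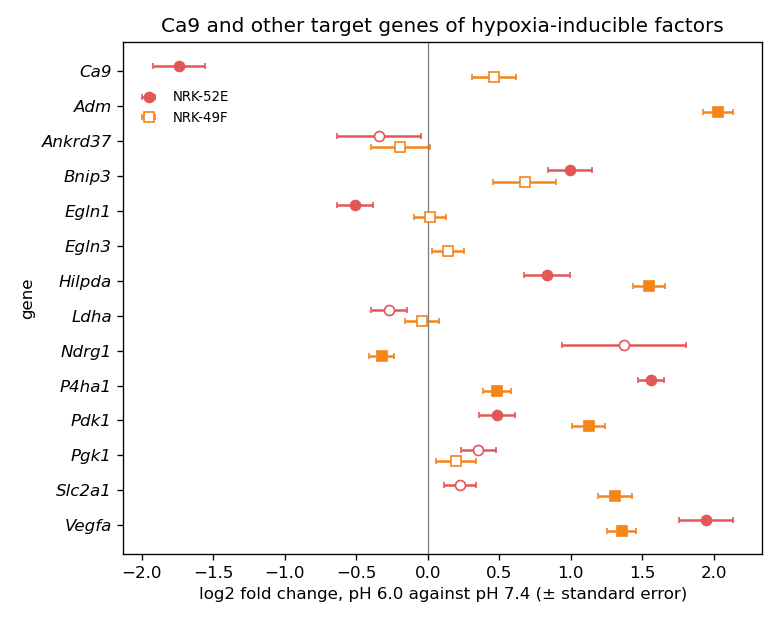
Log2 fold change at pH 6.0 against pH 7.4 (x axis) of Ca9 and 13 target genes of hypoxia-inducible factors (y axis), with bars of 1 standard error, circles for NRK-52E and squares for NRK-49F, filled where called in edgeR and DESeq2. Adm and Egln3 were not tested in NRK-52E. Ca9 has the lowest value of the genes shown in NRK-52E, at -1.74, and Vegfa the highest, at 1.95.

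The genes whose levels followed the tested carbonic anhydrases most closely were looked for among 11364 genes, by Pearson's r of log2(FPM + 1) over the 16 libraries. The libraries fall into 4 groups, so r mainly describes the group means, and no test was made. For Ca9 these genes were Ociad2 (0.983), Olfml2a (0.983) and Slc10a7 (0.971). Olfml2a had a mean of 150.4 FPM in NRK-52E cells at pH 7.4 that went to 26.9 FPM under acidosis, and 17.3 and 22.4 FPM in NRK-49F cells. For Ca5b they were Slc35f6 (0.990), Gchfr (0.987) and Cxxc5 (0.986), and Gchfr had a mean of 66.4 FPM in NRK-49F cells at pH 7.4 that went to 16.9 FPM under acidosis, and 9.23 and 3.18 FPM in NRK-52E cells. For Ca11 they were Coprs (0.962), Spint2 (0.950) and Blvra (0.947).

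All 16 carbonic anhydrases were matched by name in RefSeq. For 10 of them the set of promoter sequences used here holds 250 bases before to 50 bases after the start (GRCr8). Car13, Car2, Car3, Car1, Car8 and Car6 have no entry in that set. The promoters were searched on both strands for ACGTG and GCGTG, the cores bound by hypoxia-inducible factors, which differ in their first base, for TGACTCA, the AP-1 motif, and for TGACNNNGC, the core of the antioxidant response element, which can share its first letters with the AP-1 motif. ACGTG was in 5 of the 10 promoters (Car14, Car9, Car12, Car4 and Car15) and in 19.3% of all 33469. GCGTG was in 3 (Car11, Car12 and Car7) and in 29.7% of all. TGACTCA was in 2, Car9 and Car5b, and in 4.63% of all, and TGACNNNGC was in 0 of the 10 and in 12.1% of all. A match is only a match of letters, and binding of a factor was not measured. The promoters of Car9, Car5b and Car14 are shown 5′ to 3′ with the matches in capitals. Ca9 fell in NRK-52E and was not called in NRK-49F, Ca5b fell in both lines, and Ca14 rose in NRK-52E. In Car9 (chr5:62558774-62559073, plus strand) TGAGTCA, the AP-1 motif read on the other strand, starts 58 bases before the gene's start, and CACGT, the other strand of ACGTG, lies at position 252 of the 300 bases. In Car5b (chrX:34118776-34119075, plus strand) TGAGTCA starts 194 bases before the start, and in Car14 (chr2:186138115-186138414, minus strand) CACGT starts at position 197.
Car9: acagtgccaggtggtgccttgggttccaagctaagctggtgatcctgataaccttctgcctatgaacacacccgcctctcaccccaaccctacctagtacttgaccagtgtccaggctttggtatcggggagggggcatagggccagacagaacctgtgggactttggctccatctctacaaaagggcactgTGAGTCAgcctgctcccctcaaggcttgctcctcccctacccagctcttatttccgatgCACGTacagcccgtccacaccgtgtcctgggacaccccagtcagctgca
Car5b: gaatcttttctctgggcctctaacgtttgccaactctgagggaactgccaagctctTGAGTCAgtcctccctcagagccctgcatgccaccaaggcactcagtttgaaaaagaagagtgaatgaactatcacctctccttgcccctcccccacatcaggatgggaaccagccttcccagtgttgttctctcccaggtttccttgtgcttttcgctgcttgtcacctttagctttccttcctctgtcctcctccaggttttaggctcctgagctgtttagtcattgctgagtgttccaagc
Car14: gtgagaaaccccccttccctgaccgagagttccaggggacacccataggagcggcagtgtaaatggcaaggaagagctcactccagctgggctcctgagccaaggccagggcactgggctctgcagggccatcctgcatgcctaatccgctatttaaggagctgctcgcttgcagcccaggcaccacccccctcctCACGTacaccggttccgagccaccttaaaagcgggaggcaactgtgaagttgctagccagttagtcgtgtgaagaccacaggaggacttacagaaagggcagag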

How the data were processed

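Gene expression was measured by RNA sequencing in 16 libraries, 4 per group. The authors deposited counts of fragments per Ensembl gene, without normalization, made from poly(A)-enriched RNA sequenced as read pairs and mapped to rn6. The methods name tophat2 and the submitters' processing notes HISAT2 2.1.0, both with featureCounts. A fragment with several mapping places counted at each of them, and use of strand is not named. No library was left out, and the smallest difference between libraries of a group was above sampling noise (chi-square per degree of freedom 6.12). The counts per library set the precision of low members.

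From these counts, FPM values were computed by the cpm function of edgeR with TMM factors over 16 libraries. The pH effect in each line and the line difference at each pH were fitted in 8 libraries, and the interaction in 16, with edgeR 4.0.16 (quasi-likelihood test, filterByExpr, TMM) and DESeq2 1.42.0 (Wald test) in R 4.3.3, with Benjamini-Hochberg adjustment over all genes tested. A call needed an FDR below 0.01 in both tools with the same sign. Log2 fold changes are those of edgeR, and each standard error is the size of this value over the square root of F. The scripts were tested on simulated data. Counting intervals are exact at 95%, and the floor is 3 counts.

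Members with a count in all 4 groups are given by library and the others by their range, except that the libraries of the counts of Car1, Car2 and Car15 were named after their values were seen. From the lists other than those of marker genes, the called genes with the widest rise and fall in each line are named. For the 3 tested members with the highest mean FPM, the 3 genes with the highest r (mean of at least 1 FPM) are named. Members and lists were chosen with earlier results of these data known. Promoter motifs were chosen after the data were examined. Alternatives were other scalings, filters, thresholds and single tools, the second number as covariate or split, all libraries in 1 fit, and each library left out, and, chosen after the data were seen, no filter together with leaving out N8. Gene lengths and 2 genes of the marker lists were not analysed here.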

Additional observations from a re-analysis of the deposited data

Results flagged for a closer look

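Ca9 in library N1 was 1109 FPM, while the other NRK-52E libraries at pH 7.4 lay between 912 and 937 FPM, which sets N1 far from its group. Ca9 in N8 was 422 FPM, while the other NRK-52E libraries at pH 6.0 lay between 246 and 255 FPM. Among 18 groups of 4 values checked for a library far from the others, these were the 2 that were found, and chance gives about 1 in 20, or 0.9 here. In both cases the library lies on the upper side, and without either of them Ca9 was still called lower at pH 6.0.

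The pH effect on Ca9 differed between the lines, with a difference of -2.22 on the log2 scale between NRK-52E and NRK-49F (edgeR's interaction test, adjusted p = 1.42e-06). It lay between -2.46 and -2.05 when each of the 16 libraries was left out in turn.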

How the results depend on the processing

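Of the fold changes of single carbonic anhydrases under the alternatives, 425 kept their direction and their side of the threshold, 8 kept their direction and gained a call, 5 lost one, and 3 turned. The turned ones were Ca11 in NRK-49F, -0.07 with all libraries, 0.018 without N11 or N12 and 0.055 without N13, in a range of -0.20 to 0.055 when each library was left out. The lost calls came from splitting NRK-52E by the second number. With number 22 alone, 2820 genes and 0 carbonic anhydrases were called, against 7793 and 4, and Ca14 lost its call with number 21 too. Number 21 alone, with as many libraries, gave 5244 genes and 3 members. In NRK-49F number 21 alone gave 1980 genes against 5039 and number 20 alone 4680.

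The 1 carbonic anhydrase called in NRK-49F became 3 without a filter or with DESeq2 alone (Ca3, Ca5b and Ca9) and 2 at an FDR of 0.05 or with the second number as a covariate (Ca5b and Ca9). Leaving out each library gave 1 to 2, the 2 without N11. The 3 called between the lines at pH 6.0, with Ca13, which the filter fixed, became 5 with DESeq2 alone, which adds Ca14 and Car1, and 4 with library totals or at an FDR of 0.05, which add Ca14, or without a filter, which adds Car1. Without a filter and without N8, an alternative chosen after the data were seen, 3 were called and Car1 was not. The cause was not tested. Leaving out each library gave 6789 to 8914 called genes in NRK-52E, 4125 to 4992 in NRK-49F, 8562 to 9325 between the lines at pH 7.4, 7487 to 9263 at pH 6.0 and 4649 to 5952 in the interaction.

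With scaling by library totals alone, the median over all genes (log2) was -0.21 in NRK-52E, 0.34 and 0.12 between the lines at pH 7.4 and 6.0, and -0.25 in the interaction, and the share of NRK-52E calls that were higher at pH 6.0 was 40.7% in place of 49.7%. No tested carbonic anhydrase changed direction with the scaling. The library numbers are not shared between groups. The lines were grown together in wells, and the labels do not say which NRK-52E and NRK-49F libraries came from the same well. The line differences and the interaction were therefore fitted without such a pairing. For the pH effects alone, the second number, which is shared by the pH groups of a line, was fitted as a covariate. That fit called 7714 genes and the same 4 members in NRK-52E, and 5279 genes in NRK-49F. Counts of 0 to 20 per library limit what can be said of Ca3, Ca6, Ca12, Car1, Car2, Car7 and Car15.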

Other observations

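Markers of other cell types were summed in each group. Of 6 intercalated cell markers, 3 of which are also among the bicarbonate transporters, Foxi1 had no count. The sum was 9.83 to 14.47 FPM in NRK-52E at pH 7.4, led by Atp6v1b1, and 3.43 to 6.25 FPM at pH 6.0. At pH 6.0 Atp6v1b1 led in N8 (3.62 FPM), while Atp6v0a4 led in N3, N4 and N7. In NRK-49F the sum was 7.04 to 8.59 FPM at pH 7.4, led by Atp6v1b1, and 4.84 to 6.86 FPM at pH 6.0, led by Atp6v0a4. Of 3 endothelial markers, Kdr had no count, and Tek made up nearly all of the sum in NRK-52E, 35.4 to 44.2 FPM at pH 7.4 and 5.75 to 8.04 FPM at pH 6.0, while NRK-49F had at most 1.09 FPM. The sum of 4 erythroid markers was 3.03 to 3.95 FPM at pH 7.4 and 11.7 to 16.7 FPM at pH 6.0 in NRK-52E, and at most 1.03 FPM in NRK-49F. Epor alone made up the higher sum, with a mean of 1.21 FPM at pH 7.4 and 12.9 FPM at pH 6.0, while Klf1 fell (log2 fold change -1.36) and Hemgn had no count at pH 6.0. Of 4 macrophage markers, Ptprc and Adgre1 had no count in any group. Cd68, a lysosomal protein, made up nearly all of the sum in NRK-49F, 62.5 to 97.1 FPM at pH 7.4 and 224 to 263 FPM at pH 6.0, and NRK-52E had at most 3.90 FPM. The sum of 6 skeletal muscle and adipocyte markers was 6.96 to 10.96 FPM at pH 7.4 and 3.06 to 4.94 FPM at pH 6.0 in NRK-52E, and at most 1.19 FPM in NRK-49F.

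Ca3 is known from muscle and fat. In NRK-49F, where Ca3 was called lower at pH 6.0 only without a filter on low counts or with DESeq2 alone, the muscle and adipocyte sum was 0.657 to 1.03 FPM at pH 7.4 and 0.970 to 1.19 FPM at pH 6.0. Its members went both ways, with a higher mean at pH 6.0 for Ckm (0.0555 and 0.340 FPM) and Plin1 (0.247 and 0.433 FPM) and a lower one for Mylpf (0.432 and 0.231 FPM) and Lpl (0.0659 and 0.0156 FPM), and none of them had enough counts there to be tested.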
